A study of Mus musculus with 46 samples.

Results

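The livers in this study were sequenced to ask what loss of Plvap in hepatic stellate cells, or of Cav1 in the whole body, does to liver transcription across fasting, refeeding and fat-rich diets. Described here are 31 genes of sugar-to-fat conversion out of 55416 genes in the deposited count tables, all of which were found by gene symbol. The members were chosen as a pathway, by function: they carry carbon from glucose and fructose through citrate and acetyl-CoA into fatty acids, desaturate and elongate those acids, join them to glycerol, supply the NADPH that the synthesis consumes, or regulate these steps. The choice was made with earlier results of these data known, so counts of called members are descriptive. A total of 46 livers of male mice fell into 10 groups. PLVAP is the diaphragm protein of fenestrated endothelium, and caveolin-1, the product of Cav1, is the coat protein of caveolae.

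The Plvap knockouts carried Plvaptm1.1Salm-Tg(Lrat-cre)1Rshw on C57BL/6JBomTac, a line in which the Lrat promoter drives Cre in hepatic stellate cells, and were set against littermate controls. The labels do not say whether those controls carry Cre, and they give no ages. Refed mice on chow had 10 h without food and then 2 h with it (4 knockouts and 4 controls), while fasted mice on chow had 12 h without food (5 knockouts and 6 controls). Mice on western diet with fructose in the drinking water (4 knockouts and 5 controls) and mice on high-fat diet with plain water (5 knockouts and 5 controls) were kept on it for 6 weeks and fasted for 12 h. Cav1 knockouts of STOCK Cav1tm1Mls/J (4) and wild types of C57BL/6N (4) ate chow and were fasted for 6 h. In that last comparison the genotype and the stock differ together and cannot be told apart. Each library is 1 snap-frozen liver, and p-values measure the spread between these livers.

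Hepatic lipogenesis turns dietary sugar into fat. Pyruvate kinase (Pklr) ends glycolysis, and ketohexokinase (Khk) and triokinase (Tkfc) let fructose join it. Mitochondrial citrate leaves through the carrier encoded by Slc25a1 and is split by ATP citrate lyase (Acly) into cytosolic acetyl-CoA, which acetyl-CoA carboxylase (Acaca, Acacb) and fatty acid synthase (Fasn) build into palmitate with NADPH from malic enzyme (Me1) and the pentose phosphate pathway (G6pdx, Pgd). In the fed liver insulin acts largely through SREBP-1 (Srebf1), which the INSIG proteins hold back in the endoplasmic reticulum, and sugar acts through ChREBP (Mlxipl) and its partner proteins. Both raise the same set of enzymes, and the pathway is low in fasting.

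Totals ran between 6656342 and 23311539 counts per library, and levels are given as CPM, counts scaled to library size by the TMM method over all libraries. Plvap averaged 5.80 ± 1.03 CPM in fasted knockouts and 29.0 ± 4.91 CPM in fasted controls (SD, n = 5 and 6), with like gaps in the other 3 states. Cav1 averaged 0.769 ± 0.490 CPM in Cav1 knockouts and 4.66 ± 0.910 CPM in wild types (SD, n = 4 each). Hepatocyte markers were present in every library, with none of 8 at 0 in any group. Together the 31 members took between 0.363% and 2.77% of a library's counts. Some livers stood apart over many members: wild type B of the Cav1 comparison was the lowest of its group in 24 of 31 members, and western-diet knockout B and high-fat knockout E were each the highest of theirs in 20 of 31.

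The proximal promoters of 4 members are shown because Fasn and Aacs had the largest mean response to refeeding, while Srebf1 encodes a regulator of the pathway and Pklr its glycolytic step. Each run is the 250 bases before a RefSeq transcription start, 5′ to 3′ on the gene's strand, build GRCm38.p6. Capitals mark the NF-Y box CCAAT or its reverse complement, and positions count back from the start. Fasn (chr11:120824548-120824797, minus strand) holds NF-Y boxes at -90 to -86, -62 to -58 and -59 to -55, of which the last 2 overlap. Aacs (chr5:125475623-125475872, plus strand) holds none of the motifs searched. The third of 3 starts listed for Srebf1 (chr11:60210472-60210721, minus strand) holds an NF-Y box at -30 to -26 and GC boxes (GGGCGG) at -65 to -60 and -6 to -1, which are not capitalised. The second of 2 starts listed for Pklr (chr3:89136373-89136622, plus strand) holds an NF-Y box at -117 to -113.
Fasn: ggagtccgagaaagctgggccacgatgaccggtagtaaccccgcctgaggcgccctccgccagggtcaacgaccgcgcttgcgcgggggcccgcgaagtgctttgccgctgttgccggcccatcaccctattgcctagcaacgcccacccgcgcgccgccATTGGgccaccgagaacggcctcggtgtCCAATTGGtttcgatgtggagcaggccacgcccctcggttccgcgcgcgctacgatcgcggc
Aacs: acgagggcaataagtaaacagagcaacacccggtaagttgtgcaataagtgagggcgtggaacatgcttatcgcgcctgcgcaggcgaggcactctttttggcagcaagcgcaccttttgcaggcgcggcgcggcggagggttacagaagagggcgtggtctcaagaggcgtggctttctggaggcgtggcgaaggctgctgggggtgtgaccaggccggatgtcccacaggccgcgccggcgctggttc
Srebf1: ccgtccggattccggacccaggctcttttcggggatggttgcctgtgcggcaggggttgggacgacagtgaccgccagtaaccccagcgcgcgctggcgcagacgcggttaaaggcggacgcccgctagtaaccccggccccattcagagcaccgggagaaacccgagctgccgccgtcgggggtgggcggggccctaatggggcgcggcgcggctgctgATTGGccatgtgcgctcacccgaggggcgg
Pklr: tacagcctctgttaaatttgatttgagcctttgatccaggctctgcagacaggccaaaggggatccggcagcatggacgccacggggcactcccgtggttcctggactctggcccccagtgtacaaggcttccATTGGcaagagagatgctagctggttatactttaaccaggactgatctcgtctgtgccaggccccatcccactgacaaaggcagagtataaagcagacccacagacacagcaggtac

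Promoters of 26 members, with 35 starts, were in the RefSeq table, and both strands of the same 250 bases were searched for 5 motifs. The carbohydrate response element was searched only as a pair of exact E-boxes CACGTG with 5 bases between them. That pattern was in 0 of all 32851 starts in the table. The search could not find elements with inexact E-boxes, so it does not show that any member lacks one. The NF-Y box was in 17 of the 35 member starts and in 33.8% of all starts. The GC box was in 18 of the 35 and in 32.7% of all starts. The E-box CACGTG was in 4 of the 35 (in Elovl5, Khk, Mlxipl and Slc25a1) and in 6.02% of all starts, and the sterol regulatory element TCACNCCAC was in 1 (Mlxipl, -136 to -128 of its first start) and in 1.05% of all starts. Counted by member, 16 of the 26 held an NF-Y box at some start and 16 a GC box. Among the 15 members that were higher after refeeding in both genotypes, described below, 12 had a start in the table, and 7 of the 12 held an NF-Y box, 4 a GC box, and 0 an E-box or a sterol regulatory element. The other 16 members had 14 with a start, of which 9 held an NF-Y box, 12 a GC box and 4 an E-box. The other motifs were likewise searched as fixed letters, so a count of 0 does not show that a member lacks a variant site. Shares over all starts are per start, and no such share was made per gene. These are counts of letters in a window and say nothing of binding.

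The members spanned a wide range of level. Per kilobase of gene length, stearoyl-CoA desaturase Scd1 led with 976 CPM per kb as the mean of the 10 group means, ahead of Khk at 219 CPM per kb, the elongase Elovl5 at 181 CPM per kb, the diacylglycerol acyltransferase Dgat2 at 169 CPM per kb and the desaturase Fads2 at 161 CPM per kb. At the low end stood G6pdx at 1.11 CPM per kb, Mlxip at 0.773 CPM per kb and Scd2 at 0.746 CPM per kb. Pnpla3, a lipase of lipid droplets known to follow feeding in liver, had 126 counts over all 46 libraries and was not tested. Its libraries ran 0.0783 to 0.413 CPM in Cav1 knockouts and 0.0576 to 1.11 CPM in wild types, and 0 to 0.125 CPM in refed knockouts, 0 to 0.287 CPM in refed controls, 0 to 0.137 CPM in fasted knockouts and 0 to 0.198 CPM in fasted controls. The remaining 30 members passed the filter on low counts in every comparison.

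Within the Plvap line, 11 members differed at least 4-fold between their highest and lowest group means and 12 differed under 2-fold. Scd1 varied most, 21.4-fold between western-diet knockouts and high-fat controls. Fasn followed at 16.9-fold between refed and western-diet knockouts. Pnpla3, whose group means all lay below 1 CPM, differed 8.28-fold between western-diet controls and fasted knockouts, and Aacs, the cytosolic acetoacetyl-CoA synthetase, 7.73-fold between refed and fasted controls. Khk and the acyltransferase Agpat2 were among the least variable, at 1.53-fold and 1.47-fold. Refed livers held the highest group mean of the Plvap line for 21 members. Over all 10 groups, 23 members were highest in the Cav1 table, whose mice were fasted for 6 h only; table, stock and fasting time cannot be told apart there.

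Refeeding was compared with fasting within each genotype, in a joint fit of the Plvap-line groups by edgeR's quasi-likelihood test with Benjamini-Hochberg adjustment over 14234 genes, and a gene was called at an adjusted p under 0.05. The refed and the fasted livers are in separate tables, so that feeding state and table cannot be told apart. In knockouts 17 of 30 members rose and 3 fell, where 24.6% of all genes tested were called higher and 22.6% lower. In controls 15 rose and 2 fell, where 24.1% of all genes were called higher and 22.7% lower. The median log2 change over the 30 members was 0.50 in knockouts and 0.59 in controls, beside 0.005 and 0.011 over all genes. The same 15 members rose in both genotypes, which share no library, and Insig2 fell in both.

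Fatty acid synthesis itself rose in full: 3 of 3 members in each genotype. Fasn (ENSMUSG00000025153, chromosome 11, 120696672 to 120715373, minus strand, GRCm39) stood at 354, 493, 287 and 292 CPM in refed knockouts, against 67.97, 61.5, 26.6, 21.3 and 33.0 CPM in fasted knockouts. In controls it stood at 143, 279, 264 and 317 CPM after refeeding, against a lowest value of 26.6, a median of 33.9 and a highest of 41.2 CPM in fasting. Every refed liver lay above every fasted liver of its genotype, and fasted knockouts A and B were the highest of their group. The log2 change was 3.11 ± 0.34 (SE) in knockouts (adjusted p = 1.22e-08) and 2.88 ± 0.32 in controls (adjusted p = 1.39e-08), or 8.65-fold and 7.37-fold.

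Acaca (ENSMUSG00000020532, chromosome 11, 84020498 to 84292477, plus strand), the carboxylase that makes the malonyl-CoA used by the synthase, stood at 40.8, 48.0, 38.7 and 46.9 CPM in refed knockouts, against 15.4, 13.4, 14.6, 9.52 and 12.1 CPM in fasted knockouts. In refed controls it stood at 23.6, 34.0, 31.3 and 35.4 CPM, against a lowest value of 9.70, a median of 12.3 and a highest of 16.1 CPM in fasted controls. The groups did not overlap in either genotype, and the refed knockouts also lay above the refed controls. The log2 change was 1.77 ± 0.17 in knockouts (adjusted p = 1.88e-10) and 1.35 ± 0.16 in controls (adjusted p = 1.46e-08). Acacb, whose malonyl-CoA restrains fatty acid entry into mitochondria, stood at 45.7, 50.8, 27.0 and 47.3 CPM in refed knockouts, against 14.9, 15.7, 20.1, 11.1 and 10.2 CPM in fasted knockouts. Its log2 change was 1.60 ± 0.26 in knockouts (adjusted p = 4.68e-06) and 1.04 ± 0.24 in controls (adjusted p = 0.000514), again with no overlap in either genotype.

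**Figure D1:**
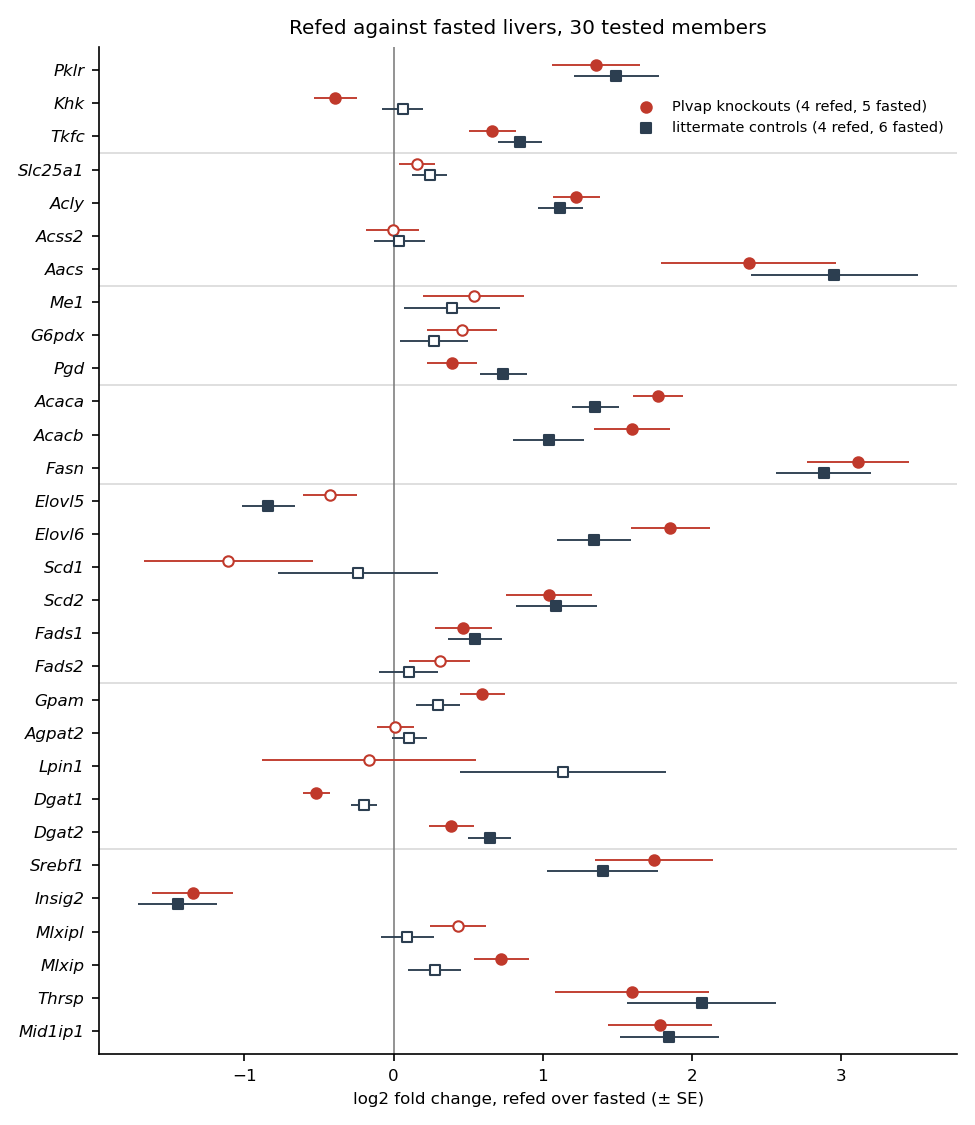
Log2 fold change of refed over fasted livers (x axis) for the 30 members tested (y axis), with knockouts as red circles and controls as dark squares; bars are standard errors and filled symbols are called at an adjusted p under 0.05. Fasn and Aacs lie farthest to the right in both genotypes and Insig2 lies on the left in both.

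Acetyl-CoA supply was split: Acly and Aacs rose in both genotypes, while Slc25a1 and the acetyl-CoA synthetase Acss2 were called in neither. Acly (ENSMUSG00000020917, chromosome 11, 100367179 to 100418826, minus strand) stood at 168, 213, 162 and 167 CPM in refed knockouts, against 96.1, 87.0, 60.1, 64.7 and 78.8 CPM in fasted knockouts, a log2 change of 1.23 ± 0.16 (adjusted p = 6.3e-08). In controls Acly stood at 83.6, 129, 122 and 162 CPM after refeeding, against a lowest value of 48.5, a median of 58.4 and a highest of 66.9 CPM in fasting, a log2 change of 1.12 ± 0.15 (adjusted p = 1.43e-07). Its refed and fasted livers did not overlap in either genotype. Aacs (ENSMUSG00000029482, chromosome 5, 125552878 to 125594474, plus strand), which activates ketone-derived acetoacetate for lipid synthesis, stood at 68.6, 49.9, 38.7 and 19.6 CPM in refed knockouts, against 14.6, 12.4, 4.42, 3.02 and 8.92 CPM in fasted knockouts. In controls the refed livers held 75.4, 37.9, 34.9 and 50.3 CPM of Aacs, against a lowest value of 4.29, a median of 4.83 and a highest of 13.4 CPM in fasting. Aacs separated refed from fasted livers of both genotypes, with log2 changes of 2.38 ± 0.58 in knockouts (adjusted p = 0.00124) and 2.96 ± 0.56 in controls (adjusted p = 6.92e-05). Slc25a1 had log2 changes of 0.16 ± 0.12 in knockouts (adjusted p = 0.296) and 0.24 ± 0.12 in controls (adjusted p = 0.0846).

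Among the 3 NADPH genes, Pgd rose in both genotypes, by 0.39 ± 0.17 on the log2 scale in knockouts (adjusted p = 0.0495) and 0.74 ± 0.16 in controls (adjusted p = 0.000229). The Pgd call in knockouts was lost without any 1 of fasted knockouts B, C and D or refed knockouts A, B, C and D, by DESeq2, with no filter, with a gene-length trend removed (log2 change 0.268) and with mitochondrial genes and those listed at 0 across a table omitted, with adjusted p up to 0.204 over the alternatives tried. Me1 averaged 60.5 ± 9.56 CPM in refed knockouts and 42.5 ± 19.3 CPM in fasted knockouts (SD, n = 4 and 5), and 94.3 ± 27.9 CPM in refed controls and 72.4 ± 16.3 CPM in fasted controls (SD, n = 4 and 6), and was not called (adjusted p = 0.2 and 0.336). G6pdx, the first enzyme of the pentose phosphate pathway, ran 2.20 to 6.08 CPM in refed knockouts and 2.48 to 4.24 CPM in fasted knockouts and was called in neither genotype. Its 2390 counts over all libraries overlap exons of Ikbkg on the opposite strand, which had 49291, and whether counting used strand is not given in the sources used here.

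Glycolysis and fructose entry rose in 2 of 3 members. Pklr (ENSMUSG00000041237, chromosome 3, 89043449 to 89054091, plus strand) stood at 99.7, 118, 72.8 and 89.3 CPM in refed knockouts, against 57.8, 36.7, 34.6, 27.4 and 32.4 CPM in fasted knockouts, and the log2 change was 1.36 ± 0.30 (adjusted p = 0.000355). In controls it stood at 72.3, 94.3, 72.5 and 87.6 CPM after refeeding, against a lowest value of 22.7, a median of 28.8 and a highest of 39.6 CPM in fasting, a log2 change of 1.49 ± 0.28 (adjusted p = 6.33e-05), and neither genotype's groups overlapped. Tkfc, which phosphorylates the glyceraldehyde made from fructose, stood at 300.4, 283, 312 and 292 CPM in refed controls, against a lowest value of 148, a median of 161 and a highest of 203 CPM in fasted controls. Its log2 change was 0.85 ± 0.15 in controls (adjusted p = 1.6e-05) without overlap, and 0.66 ± 0.16 in knockouts (adjusted p = 0.000686). Exons of Tkfc overlap those of Ddb1 and Cyb561a3 on the other strand, and exons of Pklr those of Hcn3.

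Khk (ENSMUSG00000029162, chromosome 5, 31078775 to 31088592, plus strand), the entry step of fructose, did not rise with them. It stood at 275, 318, 341 and 311 CPM in refed knockouts, against 519, 446, 381.6, 349.9 and 383.4 CPM in fasted knockouts, a log2 change of -0.39 ± 0.14 (adjusted p = 0.0241). In controls Khk stood at 295, 295, 349.9 and 346 CPM after refeeding, against a lowest value of 249, a median of 299 and a highest of 432.4 CPM in fasting (0.06 ± 0.14, adjusted p = 0.741). The knockout groups did not overlap, but the control groups did. The call in knockouts was lost without fasted knockout A or refed knockout A. It was also lost with a gene-length trend removed, where the log2 change was -0.165 and the adjusted p 0.339, the highest over the alternatives. The difference between the genotypes' changes was -0.45 ± 0.20 and did not pass (adjusted p = 0.54).

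Of the 6 elongases and desaturases, Elovl6, Scd2 and Fads1 rose in both genotypes. Elovl6, which extends palmitate to stearate, stood at 67.1, 90.4, 63.5 and 63.6 CPM in refed knockouts, against 24.0, 15.1, 27.7, 13.5 and 19.7 CPM in fasted knockouts, with a log2 change of 1.86 ± 0.26 (adjusted p = 7.88e-07). In controls Elovl6 changed by 1.34 ± 0.25 (adjusted p = 3.94e-05). Scd2, a minor desaturase in adult liver whose reads could be shared with its close paralogs, changed by 1.04 ± 0.29 in knockouts (adjusted p = 0.00297) and 1.09 ± 0.27 in controls (adjusted p = 0.00111). Fads1, which makes arachidonate, changed by 0.47 ± 0.19 in knockouts (adjusted p = 0.0405) and 0.54 ± 0.18 in controls (adjusted p = 0.0132). The Fads1 call in knockouts was lost without fasted knockout D or E or refed knockout A or B, with the replicate block, with no filter, with a gene-length trend removed and with mitochondrial genes and those listed at 0 across a table omitted, with adjusted p up to 0.166.

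The main hepatic desaturase did not follow. Scd1 (ENSMUSG00000037071, chromosome 19, 44382894 to 44396318, minus strand) stood at 1816, 1554, 1081 and 1638 CPM in refed knockouts, against 8352, 1641, 2209, 1774 and 2729 CPM in fasted knockouts, and at 2358, 3004, 1348 and 1934 CPM in refed controls, against a lowest value of 2273, a median of 2365 and a highest of 3331 CPM in fasted controls. The groups overlapped in both genotypes, fasted knockout A was far above the rest of its group, and the log2 changes of -1.11 ± 0.57 in knockouts (adjusted p = 0.109) and -0.24 ± 0.54 in controls (adjusted p = 0.741) did not pass. Elovl5, which elongates polyunsaturated acids, fell by 0.84 ± 0.18 in controls (adjusted p = 0.000185). In knockouts its change of -0.43 ± 0.18 did not pass (adjusted p = 0.0502), and the test of the difference did not pass either (0.41 ± 0.25, adjusted p = 0.674).

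Glycerolipid assembly moved in both directions. Dgat2, which makes triglyceride from newly made fatty acids, rose by 0.39 ± 0.15 in knockouts (adjusted p = 0.0326) and 0.65 ± 0.14 in controls (adjusted p = 0.000342). In knockouts Gpam, which starts glycerolipid synthesis on mitochondria, rose by 0.60 ± 0.15 (adjusted p = 0.00151), where controls had 0.30 ± 0.15 (adjusted p = 0.0935). Dgat1 stood at 20.5, 20.5, 24.3 and 24.9 CPM in refed knockouts, against 30.5, 35.7, 35.4, 30.9 and 31.9 CPM in fasted knockouts, and fell by 0.52 ± 0.09 (adjusted p = 1.99e-05). In controls Dgat1 had a change of -0.20 ± 0.09 (adjusted p = 0.0631), and the difference between genotypes did not pass (-0.32 ± 0.13, adjusted p = 0.52). Agpat2, the next acyltransferase of the chain, was called in neither genotype. The Dgat2 call in knockouts was lost without fasted knockout C or D or refed knockout B or D and with mitochondrial genes and those listed at 0 across a table omitted, with adjusted p up to 0.106.

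Lpin1, the phosphatidate phosphatase that also acts as a coactivator in fasting, varied widely within the refed groups. It stood at 13.8, 35.5, 75.4 and 249.8 CPM in refed knockouts and 64.1, 152, 43.3, 65.7 and 208 CPM in fasted knockouts, and at 9.23, 25.5, 92.4 and 94.2 CPM in refed controls and a lowest value of 13.9, a median of 22.9 and a highest of 46.5 CPM in fasted controls. Replicate A was the lowest and replicate D the highest of the refed livers in both genotypes. Neither change passed (adjusted p = 0.87 in knockouts and 0.181 in controls).

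**Figure D2:**
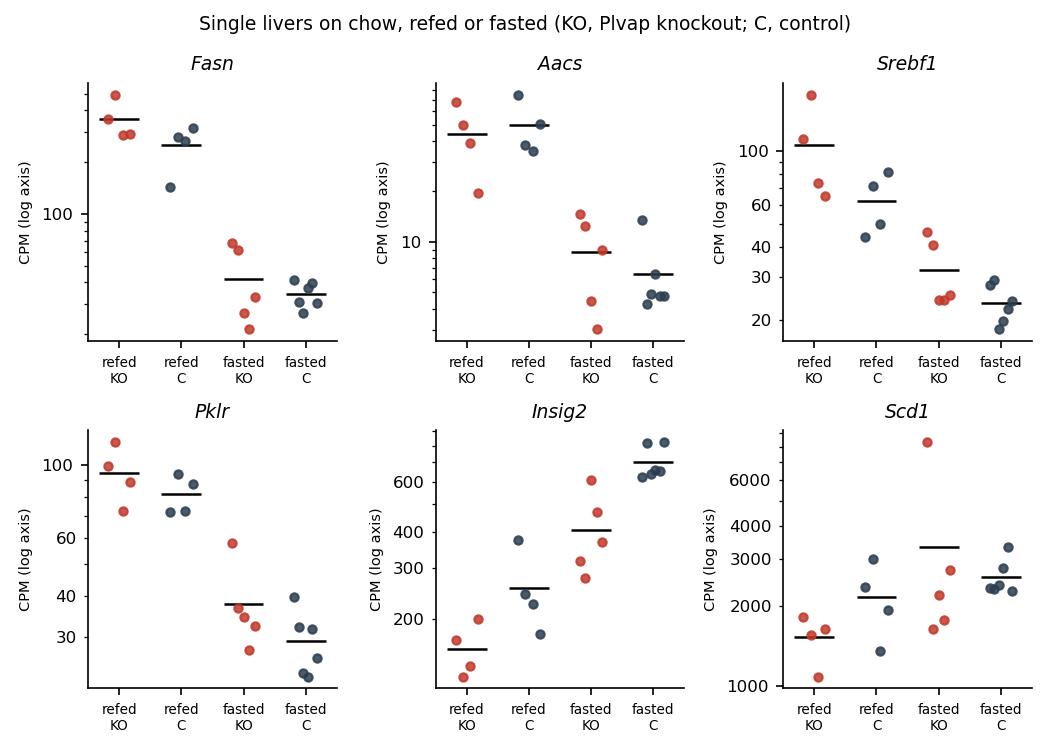
CPM on a log axis of 6 members in each liver of the refed and fasted groups; points are livers and bars are group means. Fasn, Aacs and Pklr of refed livers lie above those of fasted livers of the same genotype, Insig2 lies below, and Scd1 overlaps.

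Regulators moved in both directions. Srebf1 (ENSMUSG00000020538, chromosome 11, 60089915 to 60113407, minus strand) stood at 112, 171, 73.7 and 65.3 CPM in refed knockouts, against 46.2, 40.8, 24.2, 24.1 and 25.3 CPM in fasted knockouts, a log2 change of 1.75 ± 0.39 (adjusted p = 0.000492). In controls it stood at 43.9, 71.8, 49.9 and 81.5 CPM after refeeding, against a lowest value of 18.3, a median of 23.0 and a highest of 29.1 CPM in fasting, a change of 1.40 ± 0.37 (adjusted p = 0.00259). Refed and fasted livers did not overlap in either genotype. Insig2 (ENSMUSG00000003721, chromosome 1, 121232082 to 121260318, minus strand), which retains SREBP in the endoplasmic reticulum, went the other way. It stood at 169, 126, 137 and 199.8 CPM in refed knockouts, against 318, 277, 608, 471 and 371 CPM in fasted knockouts, a change of -1.35 ± 0.27 (adjusted p = 0.000109). In controls Insig2 stood at 375, 243, 226 and 177 CPM after refeeding, against a lowest value of 625.1, a median of 655 and a highest of 824 CPM in fasting, a change of -1.45 ± 0.26 (adjusted p = 3.14e-05), and no refed liver reached a fasted liver of its genotype.

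Thrsp and Mid1ip1 encode small proteins, of which MID1IP1 is known to promote polymerisation of acetyl-CoA carboxylase. Thrsp changed by 1.60 ± 0.52 in knockouts (adjusted p = 0.0115) and 2.06 ± 0.50 in controls (adjusted p = 0.00108). Mid1ip1 stood at 49.1, 39.9, 23.8 and 28.1 CPM in refed controls, against a lowest value of 6.67, a median of 10.4 and a highest of 13.5 CPM in fasted controls, a change of 1.85 ± 0.33 (adjusted p = 2.75e-05), and changed by 1.79 ± 0.35 in knockouts (adjusted p = 9.32e-05). Both genes rose in both genotypes, although fasted and refed knockouts overlapped for Mid1ip1 and fasted and refed controls for Thrsp. Refed control A held 19.9 CPM of Thrsp, below fasted control E at 23.3 CPM. Mlxipl stood at 117, 123, 85.9 and 130.1 CPM in refed knockouts and 76.4, 79.9, 127, 89.3 and 58.2 CPM in fasted knockouts, and was called in neither genotype (adjusted p = 0.0519 in knockouts and 0.703 in controls). Mlxip, which encodes MondoA, the sugar-responsive relative of ChREBP, rose in knockouts by 0.72 ± 0.19 (adjusted p = 0.0016) and had a change of 0.28 ± 0.18 in controls (adjusted p = 0.209).

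Neighbouring genes of the same pathways moved in part. Of all genes tested, 24.6% were called higher and 22.6% lower in knockouts, and 24.1% and 22.7% in controls. Several of the list counts below lie near these shares. Of 20 other genes of glycolysis and pyruvate entry, 7 rose and 4 fell in knockouts, and 8 rose and 3 fell in controls. The pyruvate dehydrogenase kinase Pdk4 fell by 1.71 ± 0.41 on the log2 scale in knockouts (adjusted p = 0.000847). Of 24 other regulators of lipogenesis, 13 rose and 4 fell in knockouts, and 10 rose and 3 fell in controls. Among them Nfya, a subunit of NF-Y, rose by 0.97 ± 0.16 in knockouts and 1.11 ± 0.15 in controls, and Srebf2, the cholesterol-side SREBP gene, rose by 1.02 ± 0.17 in knockouts and 1.06 ± 0.16 in controls. Of 10 other NADPH genes 1 rose and 2 fell in each genotype, with transketolase (Tkt) higher by 0.50 ± 0.14 in knockouts and 0.66 ± 0.13 in controls and isocitrate dehydrogenase 1 (Idh1) lower, at -0.26 ± 0.11 in knockouts and -0.49 ± 0.10 in controls. The other elongases and desaturases had 2 rises and 1 fall of 11 in knockouts and 3 of each in controls, the other glycerolipid genes 5 rises and 3 falls of 17 in knockouts and 4 of each in controls, and the 5 other fructose genes 0 calls in knockouts and 1 rise in controls.

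Markers of other cells moved with feeding state, where 24.6% of all genes were called higher and 22.6% lower in knockouts. In controls 24.1% were called higher and 22.7% lower, and several of the marker counts lie near these shares. Of 7 Kupffer cell markers, 4 fell in knockouts and 5 in controls, with summed levels of 284 to 320.2 CPM in refed knockouts and 583 to 829.1 CPM in fasted knockouts, and 196 to 315 CPM in refed controls and 408.7 to 642 CPM in fasted controls. Adipocyte markers summed to 20.2 to 24.9 CPM in refed knockouts and 18.1 to 33.2 CPM in fasted knockouts, and to 24.1 to 36.8 CPM in refed controls and 22.0 to 30.6 CPM in fasted controls, with Lep at 0 in both fasted groups. Of 7 tested, 4 adipocyte markers rose and 1 fell in controls, and 0 rose and 1 fell in knockouts. Of 10 stellate cell markers, 4 rose (among them Ngfr, Lrat and Col1a1) and 1 fell (Dcn) in knockouts, and 4 rose (among them Ngfr, Pdgfrb and Hand2) and 1 fell (Dcn) in controls, with sums of 230.5 to 284 CPM in refed knockouts and 325 to 352 CPM in fasted knockouts, and 232 to 275 CPM in refed controls and 282 to 376 CPM in fasted controls. Of 9 endothelial markers, 3 rose in knockouts (Stab1, Kdr and Pecam1), and 2 rose (Stab1 and Pecam1) and 1 fell (Clec4g) in controls. Of 8 hepatocyte markers, 1 rose (Hnf4a) and 1 fell (Serpina1c) in knockouts, and 2 rose (Hnf4a and Alb) and 2 fell (Apob and Serpina1c) in controls. Of 8 lymphocyte and neutrophil markers tested, 1 fell in knockouts (Ptprc) and 2 in controls (Ptprc and Nkg7), and of 5 cholangiocyte markers 1 rose in knockouts (Krt7) and 1 rose (Sox9) and 1 fell (Spp1) in controls. The part of these cells in the members' changes was not tested, and in whole liver fewer cells of a type and less RNA per cell cannot be told apart.

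The diets were set against the fasted chow livers of the same genotype and against each other. Mice on western diet took fructose in their water, and those on high-fat diet did not. The chow livers are in another table than the livers on the 2 diets, so diet and table cannot be told apart against chow, and both diets are set against the same chow livers. Against chow, 1 of 30 rose and 1 fell in western-diet knockouts, where 1.02% of all genes were called higher and 1.25% lower. In western-diet controls 2 rose and 1 fell, where 1.12% were called higher and 0.688% lower.

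Mlxipl (ENSMUSG00000005373, chromosome 5, 135118744 to 135167236, plus strand), the gene of the sugar-responsive factor ChREBP, rose on both diets. It stood at 181, 159, 149 and 172 CPM in western-diet knockouts, 249, 142, 160.4, 179 and 142 CPM in high-fat knockouts and 76.4, 79.9, 127, 89.3 and 58.2 CPM in chow knockouts. In controls it stood at 166, 149, 193, 163 and 201 CPM on western diet and 151, 178, 176, 186 and 204 CPM on high-fat diet, against a lowest value of 64.8, a median of 87.4 and a highest of 129.8 CPM on chow. No liver on either diet overlapped with chow. The log2 change against chow was 0.95 ± 0.18 in western-diet knockouts (adjusted p = 0.00296) and 0.87 ± 0.17 in western-diet controls (adjusted p = 0.0022), and 1.03 ± 0.18 in high-fat knockouts (adjusted p = 0.000239) and 0.91 ± 0.17 in high-fat controls (adjusted p = 0.000635). Between the diets Mlxipl was not called (-0.04 ± 0.14 in controls, adjusted p = 0.927).

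Tkfc fell on western diet against chow and was not called between western and high-fat diet in either genotype. It stood at 109, 132, 128 and 121 CPM in western-diet knockouts, against 261, 184, 203, 147 and 242 CPM in chow knockouts, a change of -0.75 ± 0.16 (adjusted p = 0.00724). In controls Tkfc stood at 106, 113, 110.5, 91.6 and 142 CPM on western diet, against a lowest value of 148, a median of 161 and a highest of 203 CPM on chow, a change of -0.56 ± 0.14 (adjusted p = 0.0316). The groups did not overlap in either genotype. Khk, the step before it, was not called on western diet: it stood at 471, 520.4, 506 and 407.7 CPM in western-diet knockouts and 327, 391, 410.5, 382.6 and 359 CPM in western-diet controls, with changes against chow of 0.20 ± 0.14 in knockouts (adjusted p = 0.54) and 0.27 ± 0.13 in controls (adjusted p = 0.31). Srebf1 was not called in western-diet knockouts. It stood there at 42.4, 102, 74.1 and 36.2 CPM, against 46.2, 40.8, 24.2, 24.1 and 25.3 CPM on chow. In western-diet controls Srebf1 rose by 1.44 ± 0.36 (adjusted p = 0.0283), with overlap. Those controls stood at 63.3, 20.8, 113, 72.7 and 47.8 CPM, against a lowest value of 18.3, a median of 23.0 and a highest of 29.1 CPM on chow. Without fasted control D or E or western-diet control A or D, 1 member in place of 3 was called in this comparison. The Tkfc call in controls was lost without any 1 of these or western-diet control B or C (adjusted p up to 0.0912). The Srebf1 call was lost without any 1 of fasted controls C, D, E and F or western-diet controls A, C and D, with no filter, with the replicate block and with only the compared groups fitted (adjusted p up to 0.109).

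On high-fat diet members moved in both directions. In high-fat knockouts 4 of 30 rose and 3 fell against chow, where 8.23% of all genes were called higher and 7.22% lower. In high-fat controls 4 rose and 7 fell, where 4.21% were called higher and 4.25% lower. Elovl5 (ENSMUSG00000032349, chromosome 9, 77824646 to 77891801, plus strand) stood at 380.4, 584, 403.1, 352 and 279.5 CPM in high-fat controls, against a lowest value of 774, a median of 978 and a highest of 1241 CPM in chow controls, a change of -1.30 ± 0.17 (adjusted p = 3.57e-06). In knockouts Elovl5 stood at 332, 509.7, 254, 407.02 and 325 CPM on high-fat diet, against 551, 409.2, 668, 606 and 560.4 CPM on chow, a change of -0.60 ± 0.17 (adjusted p = 0.0151). The control groups were apart, and the knockout groups overlapped.

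Scd1 stood at 273, 120.0, 222, 669 and 955.03 CPM in high-fat controls, against a lowest value of 2273, a median of 2365 and a highest of 3331 CPM in chow controls, and fell by 2.51 ± 0.54 (adjusted p = 0.00358). In high-fat knockouts it stood at 603, 1026, 1584, 177 and 3309 CPM, with a change of -1.30 ± 0.53 against chow that did not pass (adjusted p = 0.0908). High-fat knockout E and chow knockout A were the highest of their groups. Me1, the malic enzyme, stood at 15.7, 18.6, 14.7, 40.0 and 35.5 CPM in high-fat controls, against a lowest value of 49.5, a median of 73.5 and a highest of 92.6 CPM in chow controls (-1.55 ± 0.33, adjusted p = 0.00282). In high-fat knockouts Me1 stood at 16.1, 12.96, 10.0, 17.3 and 43.4 CPM, against 43.7, 29.6, 74.9, 26.8 and 37.5 CPM in chow knockouts (-1.06 ± 0.33, adjusted p = 0.0281). Acacb stood at 8.43, 14.6, 7.63, 6.98 and 6.37 CPM in high-fat controls, against a lowest value of 17.7, a median of 24.0 and a highest of 29.6 CPM in chow controls, and fell by 1.40 ± 0.25 (adjusted p = 0.000514). In knockouts Acacb was not called. It stood there at 6.84, 12.4, 7.29, 16.1 and 9.83 CPM on high-fat diet and 14.9, 15.7, 20.1, 11.1 and 10.2 CPM on chow. Scd1, Me1 and Acacb were apart between high-fat and chow controls, while each overlapped in knockouts.

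Insig2 stood at 303, 425.6, 381.3, 307 and 218 CPM in high-fat controls, against a lowest value of 625.1, a median of 655 and a highest of 824 CPM in chow controls, and fell by 1.09 ± 0.24 (adjusted p = 0.00393). In knockouts Insig2 was not called. It stood there at 286, 391, 147, 267 and 163 CPM on high-fat diet and 318, 277, 608, 471 and 371 CPM on chow, with overlap. Aacs rose on high-fat diet by 1.79 ± 0.56 in knockouts (adjusted p = 0.0291) and 2.49 ± 0.54 in controls (adjusted p = 0.00406). In high-fat knockouts it stood at 19.0, 2.95, 53.7, 16.7 and 55.2 CPM and in high-fat controls at 28.0, 20.1, 39.7, 26.2 and 66.3 CPM. Aacs livers on high-fat and on chow were apart in controls and overlapped in knockouts. Mlxip rose and Agpat2 fell in both genotypes, with changes of 0.58 ± 0.18 and -0.37 ± 0.12 in knockouts (adjusted p = 0.0249 and 0.0281) and 0.56 ± 0.17 and -0.37 ± 0.11 in controls (adjusted p = 0.0358 and 0.0317). Called in knockouts was also Fads2, the first desaturase of polyunsaturated synthesis (0.66 ± 0.20, adjusted p = 0.0206), and in controls Dgat2 (0.42 ± 0.14, adjusted p = 0.0479) and Dgat1 (-0.28 ± 0.08, adjusted p = 0.0333).

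Several of these calls rest on few livers. In knockouts 3 members in place of 7 were called without chow knockout D, and 4 without chow knockout C or high-fat knockout C or D. In controls 7 members in place of 11 were called without chow control E or high-fat control C. In knockouts the call of Elovl5 was lost without high-fat knockout C, that of Fads2 without chow knockout B or D or high-fat knockout D, and that of Mlxip without chow knockout A or D or high-fat knockout D. That of Me1 was lost without chow knockout C or any 1 of high-fat knockouts A to D, that of Aacs without any 1 of chow knockouts C to E or high-fat knockout C or E, and that of Agpat2 without any 1 of chow knockouts C to E or high-fat knockout C or D. The adjusted p of these 6 went no higher than 0.155 (Aacs) over all alternatives. In controls Mlxip was lost without any 1 of chow controls D to F or high-fat controls A to C, and Agpat2 without chow control B or E or high-fat control A, B, C or E. Dgat1 was lost without chow control E or F or any 1 of high-fat controls B to E, and Dgat2 without any 1 of the 6 chow controls or high-fat control A, C, D or E, with adjusted p no higher than 0.271 (Dgat1). With no filter the calls of Elovl5, Fads2, Me1, Aacs and Agpat2 in knockouts and of Mlxip, Agpat2 and Dgat1 in controls were lost, and with only the compared groups fitted those of Mlxip, Me1, Aacs and Agpat2 in knockouts. Agpat2 in knockouts was also lost with a gene-length trend removed, and Dgat2 in controls with DESeq2 size factors and with mitochondrial genes and those listed at 0 across a table omitted.

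Some markers of hepatocytes and other cells were also called against chow. Of all genes, 8.23% were called higher and 7.22% lower in high-fat knockouts, and 4.21% and 4.25% in high-fat controls. On western diet the shares were 1.02% and 1.25% in knockouts and 1.12% and 0.688% in controls. Single calls in lists this short are not shown to exceed these shares. On high-fat diet the hepatocyte markers Cps1 and Tat fell in knockouts (-0.73 ± 0.22 and -1.41 ± 0.40) and in controls (-0.81 ± 0.22 and -1.37 ± 0.39), with 0 of 8 higher in either. Endothelial markers had 2 of 9 higher in high-fat knockouts (Stab1 and Kdr) and 1 in high-fat controls (Stab2). On western diet the endothelial marker Clec4g fell in knockouts (-0.45 ± 0.12) and in controls (-0.59 ± 0.11), where Dnase1l3 fell too, and 0 of 9 rose. Of 10 stellate markers, 1 fell in high-fat knockouts (Dcn) and 1 rose in western-diet controls (Col1a1), and of 7 adipocyte markers tested 1 rose in high-fat knockouts (Lipe). No Kupffer cell, cholangiocyte or lymphocyte and neutrophil marker was called against chow by edgeR. The part of these in the members' changes was not tested.

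**Figure D3:**
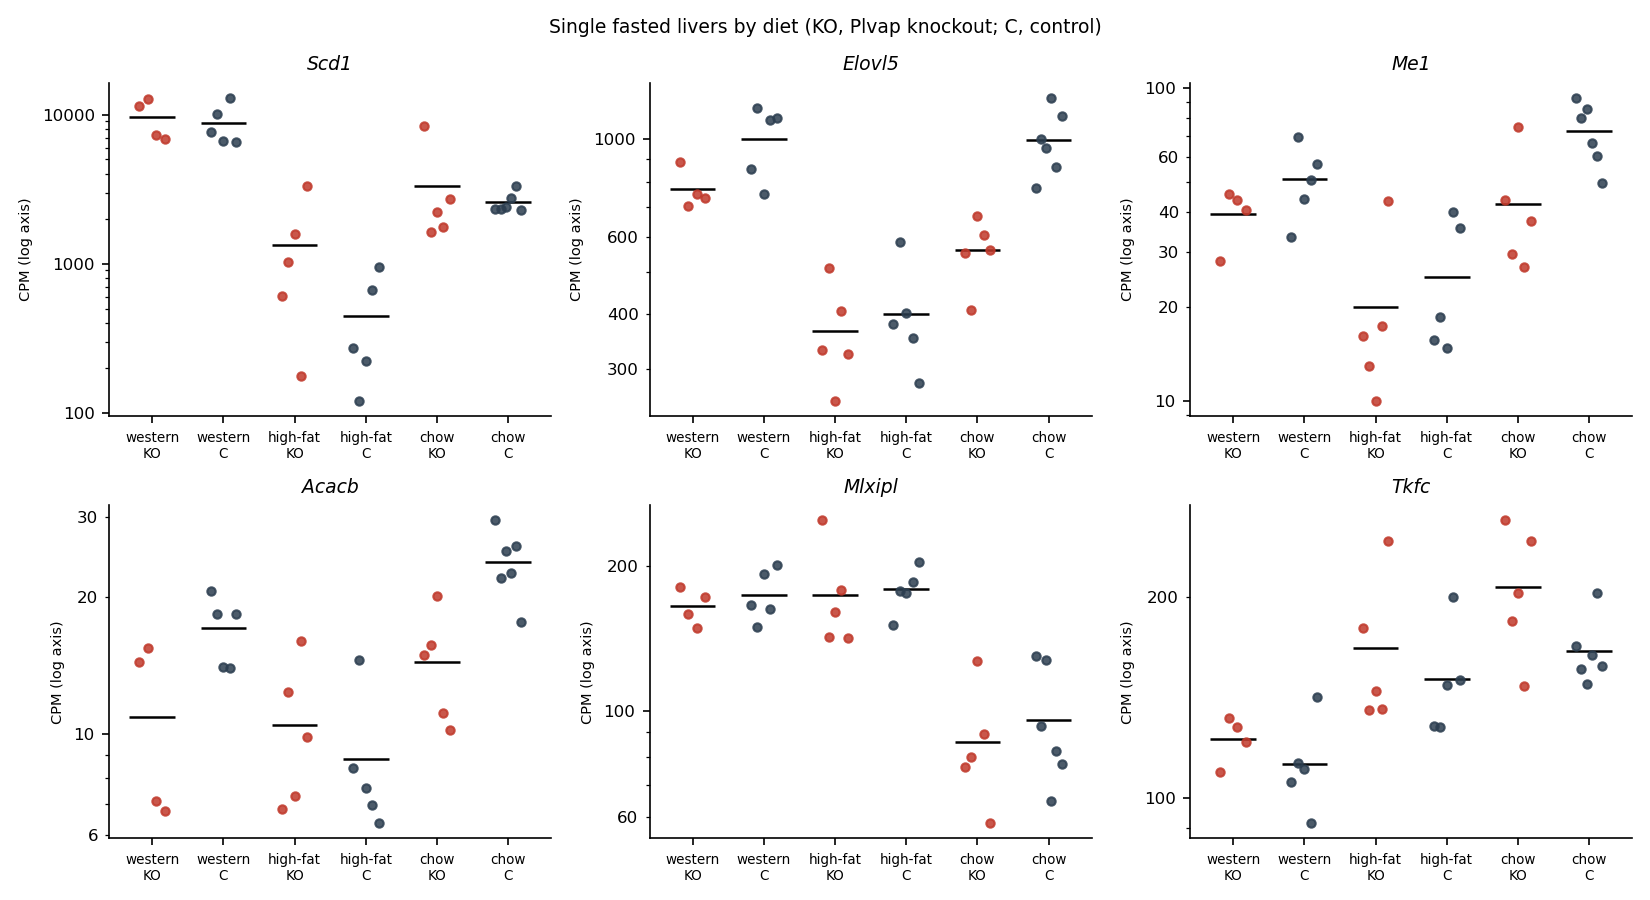
CPM on a log axis of 6 members in livers on western diet, high-fat diet and chow, knockouts before controls within each diet; points are livers and bars are group means. Scd1 and Elovl5 are higher on western than on high-fat diet in both genotypes, and Mlxipl on both diets lies above chow.

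Western and high-fat livers come from a shared table, so the direct contrast between the diets is free of the table difference. In knockouts 2 of 30 members were higher on western diet and 1 lower, where 4.43% of all genes were called higher and 4.01% lower. In controls 2 were higher and 0 lower, where 1.1% were called higher and 0.99% lower. The 2 higher members were Scd1 and Elovl5 in each genotype. Scd1 stood at 11389, 12790.0, 7308 and 6877 CPM in western-diet knockouts, against 603, 1026, 1584, 177 and 3309 CPM in high-fat knockouts, a change of 2.83 ± 0.68 (adjusted p = 0.0237). In controls Scd1 stood at 7662, 10117, 6694, 12881 and 6562 CPM on western diet, against 273, 120.0, 222, 669 and 955.03 CPM on high-fat diet, a change of 4.29 ± 0.71 (adjusted p = 0.00416), or 19.5-fold. Every western-diet liver lay above every high-fat liver of its genotype.

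Elovl5 stood at 889, 707, 752 and 735 CPM in western-diet knockouts, against 332, 509.7, 254, 407.02 and 325 CPM in high-fat knockouts, a change of 1.06 ± 0.20 (adjusted p = 0.00755). In controls Elovl5 stood at 857, 1179, 749.9, 1109 and 1117 CPM on western diet, against 380.4, 584, 403.1, 352 and 279.5 CPM on high-fat diet (1.32 ± 0.19, adjusted p = 0.000502), without overlap in either genotype. Mlxip was lower on western diet in knockouts, at 4.97, 4.15, 3.39 and 4.29 CPM, against 6.79, 6.55, 6.78, 8.95 and 7.23 CPM on high-fat diet (-0.81 ± 0.17, adjusted p = 0.0101). In controls Mlxip had a change of -0.09 ± 0.15 (adjusted p = 0.854). The synthase did not separate the diets: Fasn stood at 23.3, 23.2, 20.03 and 17.8 CPM in western-diet knockouts and 41.3, 25.1, 20.7, 21.4 and 69.9 CPM in high-fat knockouts (adjusted p = 0.151). The Scd1 call in knockouts was lost without western-diet knockout A or B and when only the groups compared were fitted, with adjusted p up to 0.0652.

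Some neighbouring regulators were called between the diets too. Of all genes, 4.43% were called higher and 4.01% lower on western diet in knockouts, and 1.1% and 0.99% in controls. Insig1, the sterol-responsive relative of Insig2, was lower on western than on high-fat diet in controls (-1.22 ± 0.27, adjusted p = 0.0235). Against chow it fell by 1.35 ± 0.34 in western-diet knockouts and its change in western-diet controls was -1.21 ± 0.30. Srebf2 was lower on western than on high-fat diet in knockouts (-0.86 ± 0.18, adjusted p = 0.0127) and in controls (-0.74 ± 0.17, adjusted p = 0.0258). Scap, which escorts SREBP to the Golgi, was lower in knockouts (-0.55 ± 0.10, adjusted p = 0.00638). In all, 4 of 24 other regulators were lower and 1 higher in knockouts, and 2 lower and 0 higher in controls. Of 9 liver endothelial markers, 5 were lower on western than on high-fat diet in knockouts, with sums of 199.9 to 222 CPM on western and 244 to 328 CPM on high-fat diet, and 1 was lower in controls, with sums of 176 to 227 CPM on western and 239.8 to 272 CPM on high-fat diet. Their part in the members' differences was not tested.

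Plvap knockouts were compared with littermate controls in each of the 4 states. In fasted knockouts 1 of 30 members rose and 3 fell, where 1.13% of 12840 genes tested were called higher and 1.12% lower. No member was called in the other states: 0 of 30 in refed knockouts, where 0.0% of all genes were called higher and 0.0227% lower, 0 of 30 on western diet (0.00739% higher and 0.00739% lower) and 0 of 30 on high-fat diet (0.2% higher and 0.0813% lower). At an unadjusted p under 0.05 edgeR had 7 of 30 members in refed, 5 in western-diet and 2 in high-fat knockouts, beside 1024 of 13228, 1325 of 13533 and 1873 of 13533 genes. At an adjusted p under 0.05 DESeq2 called 0 in refed, 1 in western-diet and 0 in high-fat knockouts. The members' median log2 change was 0.06 in fasted, 0.00 in refed, -0.12 in western-diet and 0.18 in high-fat knockouts, beside -0.005, 0.008, -0.021 and 0.009 over all genes. The labels do not say that replicate letters pair the livers, although same-lettered refed livers deviated together. In refed livers 30 genes of all tested were called with a block by replicate letter, against 3 without it, with 0 members in both fits.

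Elovl5 stood at 551, 409.2, 668, 606 and 560.4 CPM in fasted knockouts, against a lowest value of 774, a median of 978 and a highest of 1241 CPM in fasted controls, and fell by 0.84 ± 0.14 on the log2 scale (adjusted p = 0.00575), or 0.559 times the control level. All 5 knockouts lay below all 6 controls. Dgat2 (ENSMUSG00000030747, chromosome 7, 98802865 to 98831926, minus strand) stood at 505, 497, 429.5, 459.6 and 480.5 CPM in fasted knockouts, against a lowest value of 323, a median of 347 and a highest of 376.6 CPM in fasted controls, and rose by 0.44 ± 0.08 (adjusted p = 0.0126), also without overlap. Insig2 stood at 318, 277, 608, 471 and 371 CPM in fasted knockouts, against a lowest value of 625.1, a median of 655 and a highest of 824 CPM in fasted controls, and fell by 0.79 ± 0.17 (adjusted p = 0.0332). Knockout C held the highest Insig2 of its group and yet lay below every control. Acacb stood at 14.9, 15.7, 20.1, 11.1 and 10.2 CPM in fasted knockouts, against a lowest value of 17.7, a median of 24.0 and a highest of 29.6 CPM in fasted controls, and fell by 0.74 ± 0.17 (adjusted p = 0.0355), with overlap.

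The calls of Insig2 and Acacb in fasting were lost without any 1 of fasted controls A, B or C or fasted knockouts A, B, D or E, and that of Acacb also without control E, which leaves 2 or 3 members called. Without knockout C, 9 members were called. The highest adjusted p over the alternatives was 0.0878 for Insig2 and 0.0819 for Acacb. Lpin1, with the largest change of the 30 members in fasting, was not called and stood at 64.1, 152, 43.3, 65.7 and 208 CPM in fasted knockouts and a lowest value of 13.9, a median of 22.9 and a highest of 46.5 CPM in fasted controls (2.06 ± 0.48, adjusted p = 0.0632), with overlap. Fasn stood at 42.1 ± 21.2 CPM in fasted knockouts and 34.3 ± 5.86 CPM in fasted controls (SD, n = 5 and 6) and was not called (adjusted p = 0.682). Srebf1 (0.44 ± 0.20, adjusted p = 0.264) and Khk (0.41 ± 0.14, adjusted p = 0.117) were not called either. Among neighbours, the polyunsaturated elongase Elovl2 fell by 0.66 ± 0.14 (adjusted p = 0.0237), the acyl-CoA synthetase Acsl1 fell by 0.65 ± 0.16 (adjusted p = 0.0466), and Foxo1 rose by 0.68 ± 0.14 (adjusted p = 0.019).

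**Figure D4:**
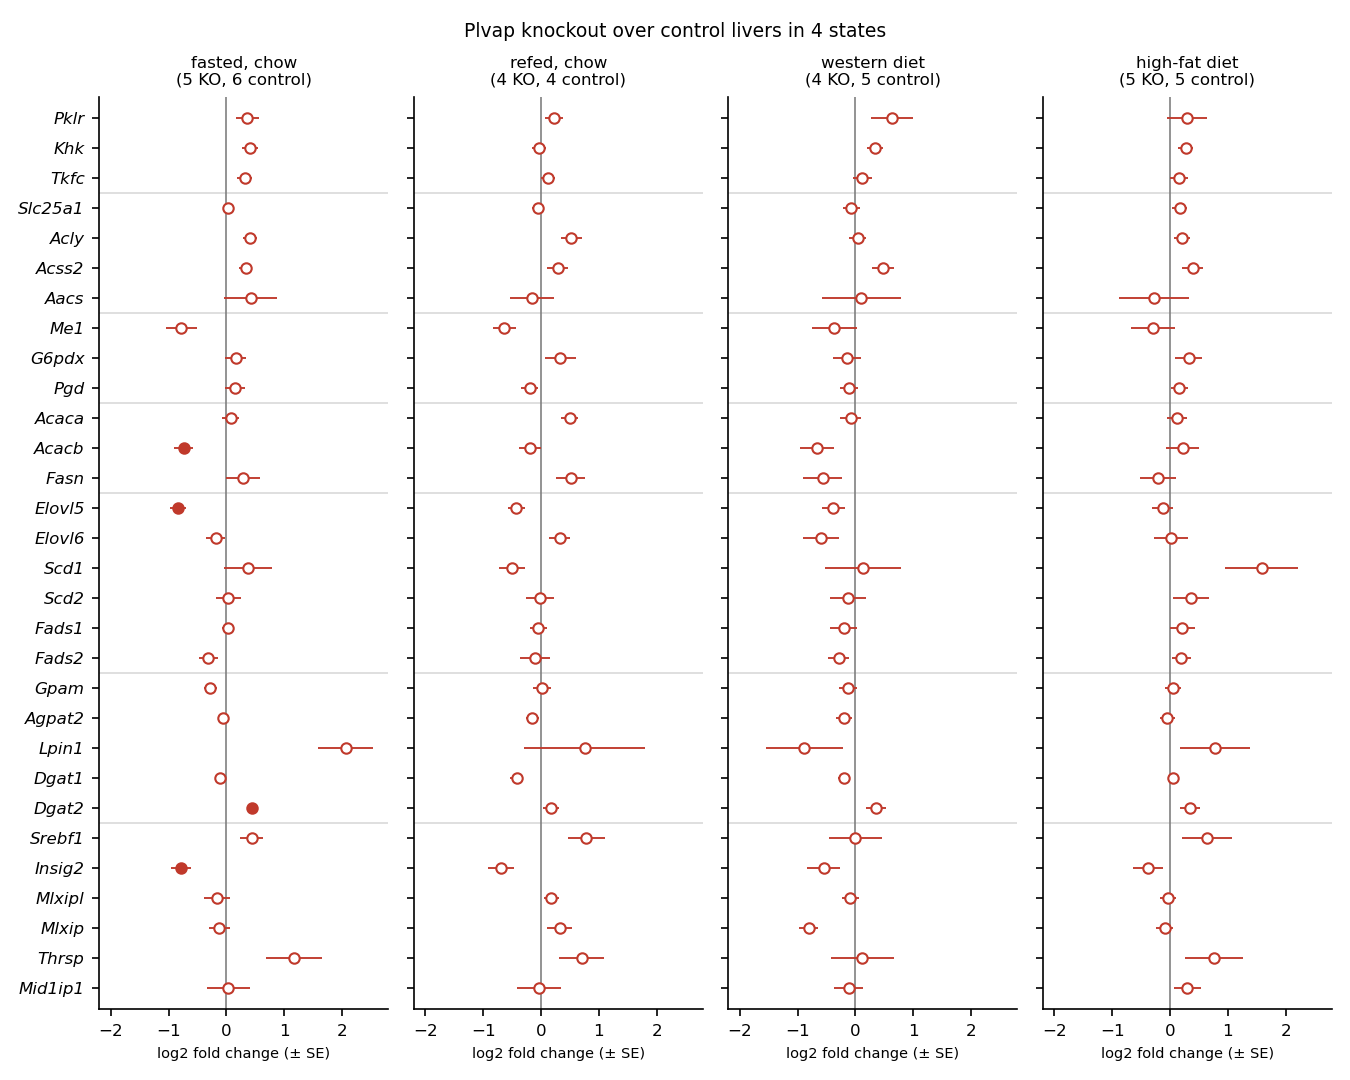
Log2 fold change of Plvap knockout over control livers for the 30 members in the fasted, refed, western-diet and high-fat states; bars are standard errors and filled symbols are called at an adjusted p under 0.05. Filled symbols appear in the fasted state for Elovl5, Insig2, Acacb and Dgat2.

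In refed livers Acaca stood at 40.8, 48.0, 38.7 and 46.9 CPM in knockouts and 23.6, 34.0, 31.3 and 35.4 CPM in controls, and Me1 at 65.6, 65.5, 64.7 and 46.2 CPM in knockouts and 134, 89.2, 70.4 and 83.2 CPM in controls. Both were without overlap and neither passed (0.49 ± 0.14, adjusted p = 0.451, and -0.63 ± 0.20, adjusted p = 0.518). Dgat1 was also without overlap, at 20.5 to 24.9 CPM in refed knockouts and 28.8 to 33.6 CPM in refed controls. Its log2 change of -0.42 did not pass. On western diet Mlxip stood at 4.97, 4.15, 3.39 and 4.29 CPM in knockouts and 7.15, 8.88, 8.07, 5.81 and 6.57 CPM in controls, without overlap, and did not pass (-0.81 ± 0.17, adjusted p = 0.163). On high-fat diet Scd1 had the largest change, 1.58 ± 0.64 (adjusted p = 0.275), with overlap: 603, 1026, 1584, 177 and 3309 CPM in knockouts and 273, 120.0, 222, 669 and 955.03 CPM in controls. Pklr, the glycolytic step, stood at 56.2 ± 35.1 CPM in high-fat knockouts and 46.3 ± 13.1 CPM in high-fat controls (SD, n = 5 each; adjusted p = 0.755).

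The sign of the knockout effect was the same in all 4 states for 10 members, higher for Acly, Acss2, Pklr, Thrsp, Tkfc and Dgat2 and lower for Me1, Elovl5, Agpat2 and Insig2. Each state has its own knockouts and controls. The same count was not made over all genes, so 10 of 30 is not shown to exceed the share among other genes. The mean effect over the 4 states, a comparison added after the data were seen, called 4 members higher and 3 lower of 30, where 3.13% of all genes were called higher and 2.45% lower. The higher ones were Dgat2 (0.33 ± 0.07, adjusted p = 0.00428), Acss2 (0.37 ± 0.09, adjusted p = 0.00622), Acly (0.30 ± 0.08, adjusted p = 0.0135) and Khk (0.25 ± 0.07, adjusted p = 0.0241). Lower were Insig2 (-0.60 ± 0.13, adjusted p = 0.00343), Elovl5 (-0.44 ± 0.09, adjusted p = 0.00146) and Dgat1 (-0.16 ± 0.04, adjusted p = 0.0215), of which the Dgat1 call was lost without refed control A and with no filter. Exons of Acss2 overlap those of Gss on the other strand, which had about as many counts.

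Whether the knockout effect differed between states was tested for 2 pairs. Between refed and fasted livers 0 members differed, with 0.0% and 0.0% of all genes called higher and lower. DESeq2 called 5 genes, 0 of them members. At an unadjusted p under 0.05, 2 of 30 members and 1192 of 14234 genes differed. Between western and high-fat diet 0 members differed as well, with 0.0% and 0.0% of all genes called higher and lower, while DESeq2 called 55 genes, 0 of them members. At an unadjusted p under 0.05, 2 of 30 members and 1546 of 13533 genes differed there.

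The hepatocyte marker Alb was higher in knockouts, by 0.96 ± 0.12 in fasted livers (adjusted p = 0.000582), 1.13 ± 0.17 on high-fat diet (adjusted p = 0.00792) and 0.88 ± 0.07 as the mean of 4 states (adjusted p = 6.66e-11). The 8 hepatocyte markers, of which Alb is the most abundant, summed to 97836 to 101110.0 CPM in refed knockouts and 61225 to 72609 CPM in refed controls, to 87720.0 to 110020.0 CPM in fasted knockouts and 53450.0 to 66433 CPM in fasted controls, to 65764 to 89396 CPM in western-diet knockouts and 47724 to 65130.0 CPM in western-diet controls, and to 75715 to 105460.0 CPM in high-fat knockouts and 45079 to 52108 CPM in high-fat controls. In each of the 4 states the lowest knockout sum lay above the highest control sum. Of all genes, 1.13% were called higher in fasted, 0.0% in refed, 0.00739% in western-diet and 0.2% in high-fat knockouts. In the mean effect 3.13% of all genes were called higher and 2.45% lower. Of the 8 hepatocyte markers, 1 rose in fasted, 0 in refed, 0 in western-diet and 1 in high-fat knockouts, and 3 rose in the mean effect. The list's median log2 change was 0.30 in fasted, 0.17 in refed, 0.0 in western-diet and 0.30 in high-fat knockouts. Stellate cell markers summed to 325 to 352 CPM in fasted knockouts and 282 to 376 CPM in fasted controls, and 0 of 10 were called there or in the mean effect. Of 7 adipocyte markers tested in the mean effect 3 fell, with log2 changes of -4.01 ± 1.15 for Plin1, -2.59 ± 0.77 for Adipoq and -0.59 ± 0.13 for Pparg. In the 4 states taken singly only 3 or 4 adipocyte markers passed the filter, and 0 were called. All 8 together were low, at 28.1 to 35.0 CPM in high-fat knockouts, where Plin1 was at 0. In controls they reached 61.6 CPM on high-fat diet (median 29.6 CPM) and 60.8 CPM on western diet (median 30.2 CPM). The endothelial marker Lyve1 rose in fasted knockouts (0.64 ± 0.15) and in the mean effect (0.62 ± 0.10), with 1 of 9 endothelial markers called in each. The B cell marker Cd79a rose in the mean effect (0.83 ± 0.18), 1 of 8 lymphocyte and neutrophil markers tested. The part of these differences in the members' changes was not tested.

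Cav1 knockout livers were compared with wild types after 6 h of fasting. Of 30 members 1 rose and 1 fell, where 2.57% of 12978 genes were called higher and 2.11% lower, and the members' median log2 change was -0.08, beside 0.024 over all genes. Insig2 stood at 279.6, 368, 231 and 299 CPM in Cav1 knockouts, against 188, 197, 169 and 157 CPM in wild types, and rose by 0.74 ± 0.14 (adjusted p = 0.0116). Aacs stood at 55.7, 41.2, 44.5 and 69.7 CPM in Cav1 knockouts, against 146, 108, 85.3 and 108 CPM in wild types, and fell by 1.07 ± 0.20 (adjusted p = 0.0136). All 4 knockouts lay above all wild types for Insig2 and below them for Aacs.

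Other members overlapped between the genotypes. Fasn stood at 424.5, 348, 355 and 337 CPM in Cav1 knockouts and 426.8, 182, 467 and 420.4 CPM in wild types (-0.02 ± 0.27, adjusted p = 0.982). Scd1 stood at 5149, 4939, 4856 and 8538 CPM in Cav1 knockouts and 15841, 5388, 10666 and 16549 CPM in wild types (-1.04 ± 0.36, adjusted p = 0.175). Pklr stood at 219, 180.1, 259 and 311 CPM in Cav1 knockouts and 403.3, 255, 436 and 406.3 CPM in wild types (-0.62 ± 0.20, adjusted p = 0.138). In the plot of the Cav1 groups, wild type B is the lowest wild type in Fasn, Pklr and Acly, and without it 6 members were called in place of 2. Khk averaged 439 ± 71.1 CPM in Cav1 knockouts and 466 ± 45.6 CPM in wild types (SD, n = 4 each; adjusted p = 0.792). Srebf1 averaged 309 ± 35.1 CPM in Cav1 knockouts and 297 ± 44.0 CPM in wild types (SD, n = 4 each; adjusted p = 0.78).

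**Figure D5:**
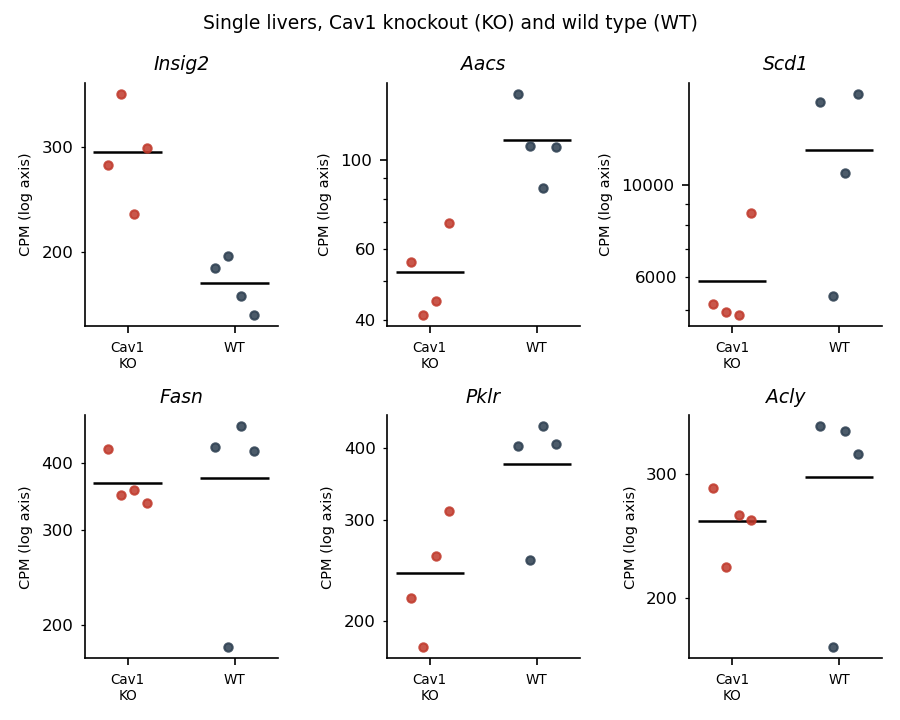
CPM on a log axis of 6 members in each Cav1 knockout and wild-type liver; points are livers and bars are group means. Insig2 is higher and Aacs lower in all 4 knockouts, and the other 4 members overlap.

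Among neighbours in the Cav1 comparison, Sord, which makes fructose from sorbitol, fell by 1.08 ± 0.10 (adjusted p = 0.00011), the desaturase-family gene Fads6 fell by 0.91 ± 0.11 (adjusted p = 0.000612) and the glycerol-3-phosphate acyltransferase gene Gpat2 fell by 1.56 ± 0.28 (adjusted p = 0.00903). The phosphatase gene Plpp2 rose by 0.68 ± 0.10 (adjusted p = 0.00392). In counts, 2 of 20 glycolytic genes, 1 of 5 fructose genes and 1 of 11 other elongases and desaturases fell, and 2 of 17 glycerolipid genes rose and 2 fell. Of all genes, 2.57% were called higher and 2.11% lower in this comparison, and single calls in short lists are not shown to exceed these shares. Of 8 hepatocyte markers 2 rose, Apoa1 by 0.80 ± 0.11 and Alb by 0.54 ± 0.13, with sums of 80784 to 109980.0 CPM in Cav1 knockouts and 64002 to 73902 CPM in wild types. Adipocyte markers summed to 25.9 to 32.0 CPM in Cav1 knockouts, where Adipoq and Plin1 were at 0, and to 30.3 to 53.2 CPM in wild types, where Lep was at 0. Of 3 adipocyte markers tested Pparg fell (-1.17 ± 0.26), and of 9 endothelial markers Clec4g fell (-0.68 ± 0.09). Their part in the members' differences was not tested.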

How the data were processed

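RNA was sequenced from 46 snap-frozen mouse livers, and the authors deposited raw counts per gene in 4 tables of 55416 genes. Per the submitters' processing notes, FastQC 0.11.9, MultiQC 1.10.1, STAR 2.7.8a, featureCounts 2.0 and GRCm39 were used; the counting strand is not given in the sources used here. Symbols were matched for 94.0% of gene IDs, and IDs with none held 0.764% of the counts. From the counts, edgeR 4.0.16 in R 4.3.3 gave TMM-scaled CPM and quasi-likelihood tests, adjusted over all genes that passed filterByExpr (minimum count 10, minimum total 15). Refed against fasted, diet against chow, the refed-fasted difference of the knockout effect and the mean knockout effect came from a joint fit across tables. Western and high-fat diet were compared within their shared table. Fold changes carry standard errors derived from the F statistic. DESeq2 1.42.0, other filters, size factors, a gene-length trend, fits on the compared groups, a replicate block and leaving out each liver were the alternatives. Same-lettered refed knockout and control livers deviated together (correlations 0.326, 0.286, 0.301 and 0.287), but the labels do not say that the letters pair them. Livers of different letters were not compared. In the other tables the correlations ran between -0.251 and 0.337. The refed table lists mitochondrial genes at 0, and an alternative omitted them. The free-text protocol gives 12 h of fasting for all chow mice, and the times of the sample characteristics were used. The script was checked on simulated counts. Members and lists were chosen with earlier results of these data known. Values by liver are given for up to 6 called members of smallest p in a comparison and for Srebf1, Mlxipl, Fasn, Pklr, Khk and Pnpla3; of each list up to 4 called members of smallest p could be named. Some genes of the lists are not reported here by name.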

Additional observations from a re-analysis of the deposited data

Results flagged for a closer look

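For groups of 4 to 6 livers, levels were taken as log2 of CPM plus 0.5. A liver was listed where, on that scale, its gap to the nearest other liver exceeded a set part of the group's range. That part was the 95% critical value of Dixon's test. The values given below are plain CPM. Chance lists about 1 in 20 such groups. Of 310 pairs of member and group, 17 were listed, where that rate gives 15.5. The livers were not left out of any main result.

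Wild type B of the Cav1 comparison stood low and apart in 4 members, with 181.81 CPM of Fasn, 170.0 CPM of Acly, 61.43 CPM of Elovl6 and 255.29 CPM of Pklr. Cav1 knockout D stood high in Scd1 with 8537.8 CPM. Among refed knockouts, C stood apart in Acacb with 26.953 CPM, B in Acly with 212.8 CPM and in Elovl6 with 90.384 CPM, and D in Me1 with 46.163 CPM. Refed control A stood apart in Elovl6 with 37.918 CPM.

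On western diet, control A stood apart in Fads1 with 365.7 CPM and in Pnpla3 with 1.1193 CPM, and knockout D in Aacs with 22.651 CPM. On high-fat diet, knockout C stood apart in Gpam with 105.39 CPM and knockout E in Slc25a1 with 252.2 CPM. Among fasted controls, D stood apart in Gpam with 219.52 CPM and A in Aacs with 13.437 CPM. The cause of these values was not tested.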

How the results depend on the processing

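Of 78 calls of a member in a comparison, 58 were kept under every alternative, 20 were lost under at least 1 and 0 reversed sign. DESeq2 called 7 members in place of 4 in fasted knockouts, 1 in place of 0 in western-diet knockouts, 6 in place of 2 between the diets in controls and 5 in place of 3 in knockouts, 5 in place of 2 for Cav1, and 5 in place of 2 for western-diet against chow knockouts. Without a filter 8 members were called in fasted knockouts, 3 in refed knockouts and 2 (in place of 7) for high-fat against chow knockouts. Fitting only the compared groups called 5 between the diets in controls and 3 for high-fat against chow knockouts. With the replicate block 6 members were called in fasted knockouts, while the Insig2 call there and 5 others (Fads1 refed against fasted in knockouts, Srebf1 on western diet in controls, Agpat2 on high-fat diet in each genotype, Dgat1 on high-fat diet in controls) were lost.

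Leaving out 1 liver at a time gave 2 to 9 members in fasted knockouts, 0 to 0 in refed, western-diet and high-fat knockouts and for both differences between states, 2 to 3 and 2 to 4 between the diets in controls and knockouts, and 2 to 6 for Cav1. It gave 17 to 19 and 17 to 21 for refed against fasted controls and knockouts, 1 to 4 and 2 to 3 for western diet against chow controls and knockouts, 7 to 10 and 3 to 8 for high-fat diet against chow controls and knockouts, and 6 to 8 for the mean knockout effect.

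Counts over all genes moved more. Fasted knockouts had 289 calls, 717 by DESeq2, 861 without a filter, 713 with the block and 90 to 550 with 1 liver left out. Refed knockouts had 3, 59 by DESeq2, 131 without a filter, 30 with the block and 0 to 4 with 1 liver left out. Western-diet knockouts had 2, 21 by DESeq2, 10 without a filter, 1 with the block and 1 to 5 with 1 left out. High-fat knockouts had 38, 253 by DESeq2, 99 without a filter and 4 to 61 with 1 left out. Between the diets controls had 283, 590 by DESeq2 and 132 to 307 with 1 left out, and knockouts 1143, 523 with the block and 367 to 1307 with 1 left out. The differences of the knockout effect had 0 genes, 55 by DESeq2 and 10 without a filter between the diets, and 5 by DESeq2, 4 without a filter, 5 with the block and 0 to 17 with 1 left out between refed and fasted. Cav1 had 607, 940 by DESeq2, 1279 without a filter and 330 to 671 with 1 left out. Against chow, western-diet controls had 258, over 1.5 times as many by DESeq2, 136 with only the compared groups and 149 to 271 with 1 left out, and western-diet knockouts 323, 505 by DESeq2, 183 without a filter and 123 to 327. High-fat controls had 1204, 731 without a filter and 668 to 1341 with 1 left out, and high-fat knockouts 2199 and 1269 to 2335.

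DESeq2 size factors moved no member by more than 0.021 on the log2 scale. The causes of these differences were not tested. With 4 to 6 livers a group, and with single livers apart by several fold in Scd1, Lpin1, Fasn and Thrsp, a member that was not called is not shown to be the same in both groups. Pnpla3, G6pdx, Mlxip and Scd2 had few counts.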
